A study of Mus musculus with 6 samples.

Results

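The Dach genes and the class IIa histone deacetylase (HDAC) genes were followed across the RNA of tibialis anterior, which lifts the foot, in C57BL/6 mice at 12 months of age. The 6 genes are Dach1, Dach2, Hdac4, Hdac5, Hdac7 and Hdac9, taken by name from the deposited table. Because Hdac4 has 2 rows there, under the identifiers ENSMUSG00000026313 and ENSMUSG00000073617, they fill 7 of 28510 rows. They were chosen by their place in a pathway and with their KO and WT levels in these same libraries known, the fall of Dach2 above all, so their KO and WT values are given as a description, without p-values. All mice carried altered alleles of both genes for the histone variant H2A.Z: 3 WT samples had H2A-Z.1 flox/flox and H2A-Z.2 flox/flox alleles without active Cre (labelled HSA Cre WT), and 3 KO samples were H2A-Z.1-/- and H2A-Z.2-/- (HSA Cre+). The HSA promoter drives Cre in muscle fibres, and whole muscle also holds cells in which it is not active. In bulk RNA, fewer cells of a type and less RNA per cell cannot be told apart. The study asked how loss of H2A.Z affects transcription in skeletal muscle.

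Class IIa HDACs carry a repressive signal from the nerve and from calcium to muscle genes. They bind the Mef2 transcription factors and shut off their targets, kinases mark them for 14-3-3 proteins that hold them in the cytoplasm, and their deacetylase activity largely comes from Hdac3 in the Ncor complex. Dach2, a vertebrate relative of the fly repressor dachshund that works with sine oculis homeobox and Eya proteins, represses the myogenic factor gene Myog in innervated muscle. When a muscle is denervated, Hdac4 accumulates and represses Dach2, and Myog and its targets, among them the acetylcholine receptor subunit genes, are released.

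The libraries held 35456883 to 102919416 counts, with the lowest total in WT replicate 2. The targeted genes were lower in the KO libraries, as labelled: H2afz averaged 16.5 ± 1.75 CPM (counts scaled to library size with TMM factors) in WT and 4.60 ± 0.514 in KO, and H2afv 18.6 ± 2.42 and 4.14 ± 0.405 (SD, n = 3 each). The first principal component held 61.4% of the variance and separated the KO from the WT libraries, and WT replicate 2 and WT replicate 3 lay apart from each other on the second component (13.1%). Among KO libraries, replicate 2 was most often the extreme one, with the lowest value for 39.0% and the highest for 38.8% of the genes tested. Of 10 fibre markers, 1 rose (Actn2, log2 0.83) and 1 fell (Tnnt3, log2 -0.70). Their sum was 234000 to 257000 CPM in WT and 155000 to 203000 CPM in KO, of which Ttn, which did not pass, gave 121000 to 133000 CPM in WT. Of 10 macrophage markers, 8 rose in KO, and their summed level was 73.7 to 172 CPM in WT and 239 to 347 CPM in KO. Of 8 fibroblast markers, 5 rose (619 to 957 CPM in WT and 923 to 1680 CPM in KO). Schwann cell markers (2 of 8 risen, 28.9 to 38.5 and 45.6 to 61.0 CPM) and satellite cell markers (1 of 8 risen, 48.1 to 53.7 and 58.0 to 70.7 CPM) also summed higher in KO. The satellite cell marker that rose was Chodl (log2 1.03). The other 7 did not pass, at log2 -0.29 (Cdh15) to 0.51 (Calcr), with Pax7 at 0.17 and Myf5 at 0.03. The endothelial markers summed lower in KO (1 of 10 fallen, 275 to 314 and 206 to 259 CPM). Over all genes tested, 13.5% rose and 12.4% fell. A count of 1 gene in these lists is close to those shares and does not by itself show a shift. None of these markers was at 0 in any library, and their part in the results below was not tested.

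Dach2 was nearly lost from KO muscle. Its level was 4.64, 5.59 and 5.03 CPM in WT replicates 1 to 3 and 0.324, 0.754 and 0.563 CPM in KO replicates 1 to 3. The lowest WT library stood well above the highest KO library. The reads behind these levels numbered 196 to 378 per WT library and 33 to 60 per KO library. Dach2 was thus 9.42-fold lower in KO (log2 fold change -3.24, SE 0.28, edgeR fit over all genes, 95% interval 6.11-fold to 14.5-fold lower). The fall of both targeted genes in the same libraries was smaller, 3.59-fold for H2afz and 4.50-fold for H2afv. The authors' deposited table gives Dach2 a log2 fold change of -2.96.

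Dach2 lies on the X chromosome. The reference annotation (GRCm38) puts its start at 2 nearby positions, and the sequences around them are shown because Dach2 carried by far the greatest difference among the 6 genes. The stretches run from 250 bases before to 50 after each start, on the plus strand, and come from RefSeq (GRCm38.p6). The distal one, at chrX:113297260-113297559, has 45.3% G and C and holds a long run in which C alternates with A or G. The proximal one, at chrX:113298006-113298305, has 66.3% G and C.
Dach2 distal start: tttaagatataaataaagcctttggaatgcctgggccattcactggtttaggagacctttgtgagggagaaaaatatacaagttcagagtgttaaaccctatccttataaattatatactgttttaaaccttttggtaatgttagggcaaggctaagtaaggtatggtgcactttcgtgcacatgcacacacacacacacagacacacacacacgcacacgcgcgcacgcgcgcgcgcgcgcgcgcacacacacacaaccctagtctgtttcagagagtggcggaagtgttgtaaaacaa
Dach2 proximal start: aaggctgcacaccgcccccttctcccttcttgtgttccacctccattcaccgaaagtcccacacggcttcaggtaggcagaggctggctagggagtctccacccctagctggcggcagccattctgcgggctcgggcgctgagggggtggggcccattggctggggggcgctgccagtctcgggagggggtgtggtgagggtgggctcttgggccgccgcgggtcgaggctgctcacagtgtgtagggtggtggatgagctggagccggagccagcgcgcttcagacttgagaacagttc
No capitals appear in either stretch. Capitals mark the letters CTANNNNTAG, a loose pattern for a Mef2 site, or the E-box form CAGCTG, the kind of site bound by myogenic factors. Both patterns were searched on both strands, and neither stretch holds one. Other forms of a Mef2 site were not searched. The distal stretch does hold the wider E-box CANNTG, as CACATG starting 71 bases before the start site, and the proximal stretch does not.

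Dach1, the other Dach gene, did not differ between groups beyond their spread. WT replicates 1 to 3 had 4.63, 4.70 and 6.00 CPM of it, and KO replicates 1 to 3 had 3.61, 5.42 and 3.95 CPM. The groups overlapped, with KO replicate 2 above the lower pair of WT libraries. The log2 fold change was -0.25 (SE 0.20, 95% interval -0.69 to 0.20). Without KO replicate 2 it was -0.42, and with library size alone as the scaling it was -0.03. Per kb of the longest coding transcript, the level of Dach2 was 1.02 ± 0.177 times that of Dach1 in WT and 0.125 ± 0.0300 times in KO (mean ± SD, n = 3 each). The ratio was 0.848 to 1.20 in the WT libraries and 0.0908 to 0.144 in the KO libraries. Which gene was higher in WT depended on the length used, as given with the levels per kb, while the change of the ratio between genotypes does not depend on it.

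**Figure D1:**
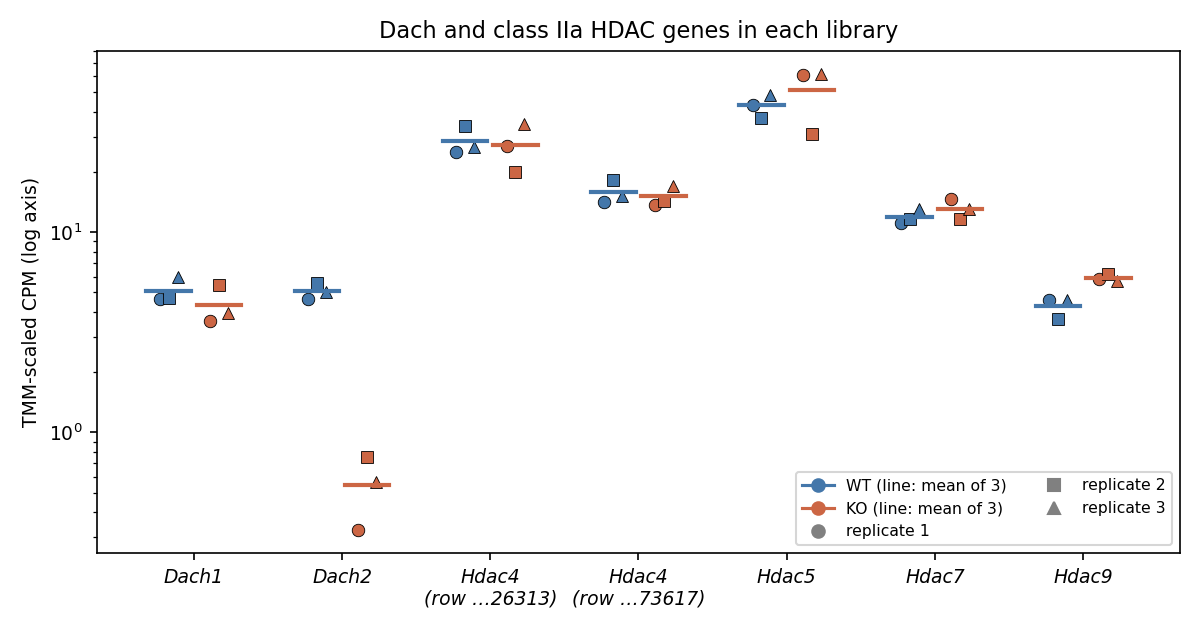
TMM-scaled CPM on a log axis for each of the 7 rows, with WT in blue and KO in orange, a symbol per replicate number and a line at the mean of 3 libraries. Dach2 falls from 5.09 ± 0.474 to 0.547 ± 0.216 CPM, and the KO replicate 2 square lies lowest among KO for Hdac5 and for the first Hdac4 row.

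Hdac4, which accumulates at the synapse and throughout denervated fibres, did not differ between groups beyond their spread. Its row ENSMUSG00000026313 read 25.1, 33.8 and 26.5 CPM across WT replicates and 27.1, 20.1 and 34.9 CPM across KO replicates. The KO libraries thus lay on both sides of the WT libraries. The log2 fold change was -0.05 (SE 0.20), with a 95% interval from 0.71-fold to 1.31-fold of WT. The other row, ENSMUSG00000073617, read 14.1, 18.2 and 15.1 CPM in WT against 13.7, 14.3 and 17.1 CPM in KO, with a log2 fold change of -0.07 (SE 0.15, 95% interval 0.756-fold to 1.21-fold). This identifier is absent from the GENCODE annotation used here, so how the reads of Hdac4 divide between the rows is not known. In 5 of the 6 libraries the second row held 0.491 to 0.569 times the counts of the first, and in KO replicate 2 it held 0.713 times. The sign of both rows depended on the scaling and on single libraries: with library size alone they were at 0.15 and 0.13, and without KO replicate 2 the first row was at 0.14.

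Hdac5, which shares with Hdac4 the repression of Mef2 targets, had the most reads of any 1 row of the family and the widest spread in KO. The 2 Hdac4 rows averaged 28.5 and 15.8 CPM in WT and Hdac5 averaged 43.0 CPM. Which of these genes had more reads in WT is therefore not settled. The level of Hdac5 was 43.4, 37.2 and 48.3 CPM in WT and 60.9, 30.8 and 62.0 CPM in KO. KO replicates 1 and 3 lay above every WT library, and KO replicate 2 lay below every WT library. The log2 fold change over all libraries was 0.25 (SE 0.24), with a 95% interval from 0.828-fold to 1.71-fold of WT. Without KO replicate 2 it was 0.53 and Hdac5 counted among the genes past the threshold of adjusted p below 0.05; with any other library left out it lay between 0.12 and 0.34 and did not.

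Hdac7, a class IIa HDAC best known from endothelial cells and thymocytes, measured 11.1, 11.6 and 13.0 CPM in the WT libraries and 14.7, 11.6 and 13.0 CPM in the KO libraries. The ranges met, and the log2 fold change was 0.14 (SE 0.15, 95% interval 0.879-fold to 1.38-fold of WT). Endothelial markers summed to a lower level in KO than in WT, as given above. With library size alone the value for Hdac7 was 0.36. The end of the gene overlaps Slc48a1, on the opposite strand, by 29 bases in the reference annotation. Whether reads were counted by strand is not stated, so reads from this overlap cannot be assigned.

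Hdac9 is the class IIa HDAC that, with Dach2, represses acetylcholine receptor genes in innervated muscle, largely as a short form without the catalytic domain. It was slightly higher in each KO library: 4.61, 3.68 and 4.59 CPM in WT and 5.85, 6.17 and 5.71 CPM in KO. The groups did not overlap, and the KO libraries lay closer together (SD 0.238 CPM) than the WT libraries (SD 0.533 CPM). The log2 fold change was 0.46 (SE 0.17, 95% interval 1.07-fold to 1.76-fold of WT, not adjusted for the number of genes). At the adjusted threshold over all genes Hdac9 was not past it. It was past it with library size alone (0.67) and with a stricter expression filter (0.51). Counts are per gene, so the short and full-length forms were not separated.

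In all, 1 of the 7 rows fell and 0 rose in the edgeR fit, and the groups of 2 rows, Dach2 and Hdac9, did not overlap. Of all 16628 genes tested, 25.9% were past the threshold in either direction, 13.5% risen and 12.4% fallen, and the groups of 42.6% did not overlap, with KO above WT for 21.6% and below for 21.0%. All 7 rows passed the filter on low counts. Since the genes were chosen with this comparison known, nothing is read from these counts. Dach2 counted as fallen in all 14 alternative fits, at log2 fold changes of -3.49 to -2.95.

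**Figure D2:**
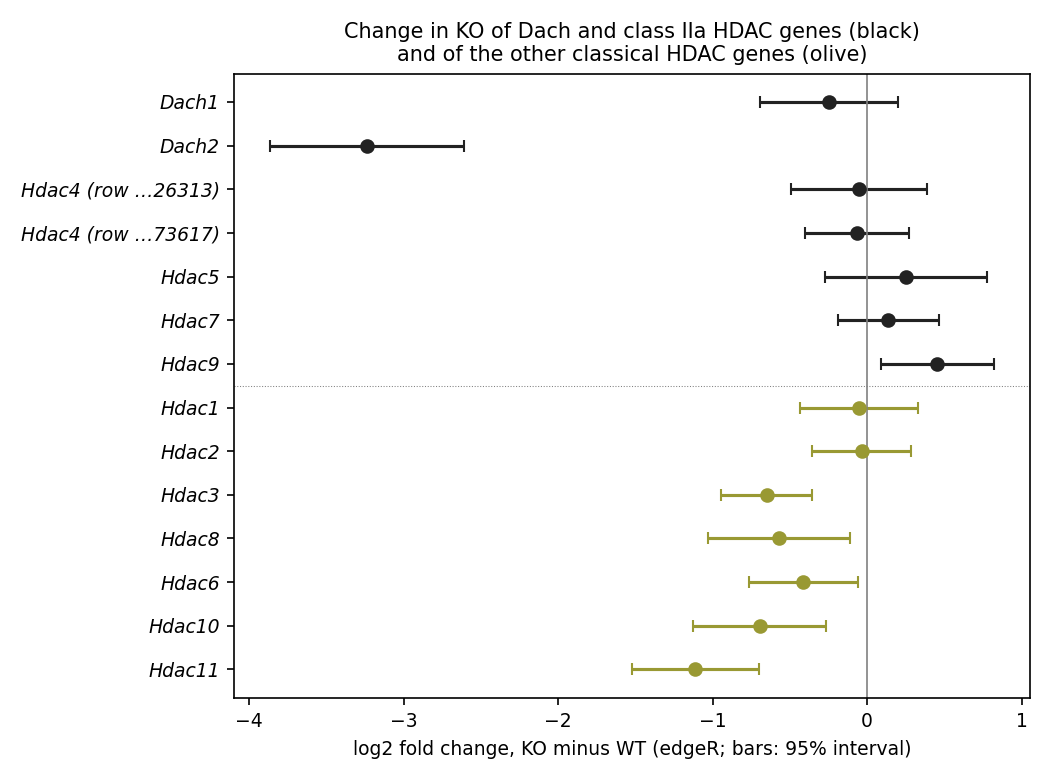
Log2 fold change of KO over WT with its 95% interval for the Dach and class IIa HDAC rows (black) and the other 7 classical HDAC genes (olive). Dach2 lies at -3.24, apart from all other rows, the intervals of 4 of the 5 class IIa HDAC rows include 0, and the olive points lie between -1.11 and -0.04.

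To set levels of different genes side by side, CPM was divided by the length in kb of the longest coding transcript in the reference annotation. In WT muscle Hdac5 led with 8.86 ± 1.15 CPM per kb, followed by Hdac4 (first row) with 3.51 ± 0.575 and Hdac7 with 2.82 ± 0.238. Dach2 with 0.987 ± 0.0920 and Dach1 with 0.979 ± 0.148 came next, and Hdac9 was lowest with 0.541 ± 0.0672 (SD, n = 3 each). Dach2 and Dach1 did not differ beyond their spread at this length. By its first row alone, Hdac4 was also close to Hdac7, with 3.10 CPM per kb in the lowest Hdac4 library and 3.09 in the highest Hdac7 library. The Hdac4 levels per kb given here and below leave out the second row, which averaged 15.8 CPM in WT and 15.1 CPM in KO. They may therefore be too low, and the closeness of Hdac4 to Hdac7 may come from this omission. In KO muscle the order was Hdac5 (10.6 ± 3.65), Hdac4 (3.38 ± 0.911), Hdac7 (3.10 ± 0.368), Dach1 (0.829 ± 0.184), Hdac9 (0.744 ± 0.0299) and Dach2 (0.106 ± 0.0418 CPM per kb). Dach2 thus moved from the middle of the order to its end, and the neighbours Hdac4 and Hdac7, and Dach1 and Hdac9, overlapped there.

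The length used for a gene shapes such an order. Hdac5 was first under every length tried, but the length behind the deposited per-kb signal is 0.754 kb for Hdac5, while its longest coding transcript has 4.85 kb. With the deposited lengths, Hdac5 would stand at 57.0 ± 7.37 CPM per kb in WT, and Dach2 (1.88 ± 0.175) would stand above Dach1 (1.08 ± 0.163). With the union of annotated exons, Hdac4 by its first row alone (1.80 ± 0.294) and Hdac7 (1.77 ± 0.149) could not be ordered in WT. Dach2 (0.515 ± 0.0481) stood below Dach1 (0.699 ± 0.105) with this length.

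The make-up of the class IIa HDAC message overlapped between the genotypes. Of the summed level per kb of the 4 genes, Hdac5 held 58.7%, 51.0% and 58.9% in WT and 62.4%, 51.3% and 61.2% in KO. The second Hdac4 row is left out of this sum, so the share of Hdac4 may be too low and the other shares too high. This may weigh most in KO replicate 2, where the second row held 0.713 times the counts of the first. Hdac4 (first row) held 19.4% to 27.7% in WT and 16.6% to 20.6% in KO, and Hdac7 17.2% to 18.3% and 14.7% to 22.3%. Hdac9 held 3.07% to 3.80% in WT and 3.44% to 6.29% in KO. The ranges of each gene overlapped between genotypes, and KO replicate 2 stood at the high end for Hdac7 and Hdac9. The summed level was 15.1 to 16.9 CPM per kb in WT and 12.4, 20.1 and 20.9 in KO, with the low value in KO replicate 2.

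**Figure D3:**
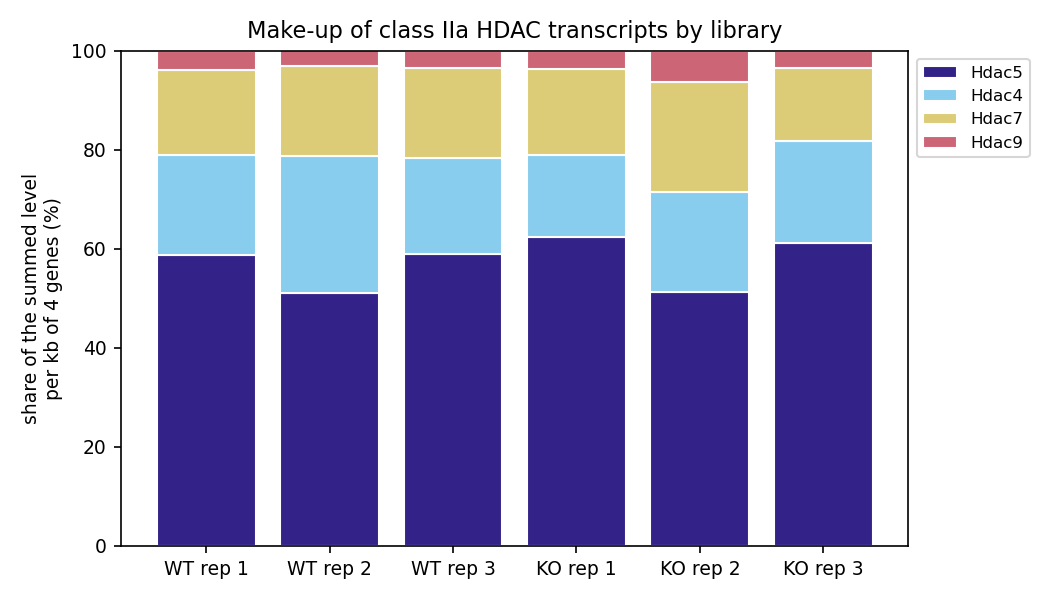
Share (%) of each class IIa HDAC gene in their summed level per kb of longest coding transcript, one bar per library, using the first Hdac4 row. Hdac5 takes 51.0% to 62.4% in every library, and the Hdac9 segment is thickest, at 6.29%, in KO replicate 2.

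The promoter of Hdac5 is shown because its row had the most reads. Those of Hdac9 are shown because it is itself a known Mef2 target and was the class IIa gene whose groups did not overlap. Among the 11 annotated start windows of the 6 genes, 2 held the letters CTANNNNTAG, against 3.69% of 32851 windows of the same length from all genes, and 3 held CAGCTG, against 16.3%. CAGCTG is one form of the wider E-box CANNTG, which 6 of the 11 windows and 72.3% of all windows held. The Hdac5 window, at chr11:102230123-102230422 on the minus strand, has the motif CTATTTTTAG starting 20 bases before the start site. Hdac9 has 2 windows on the minus strand, the upstream one at chr12:34917046-34917345 and an internal one at chr12:34528840-34529139. Capitals mark CTANNNNTAG and CAGCTG.
Hdac5 start: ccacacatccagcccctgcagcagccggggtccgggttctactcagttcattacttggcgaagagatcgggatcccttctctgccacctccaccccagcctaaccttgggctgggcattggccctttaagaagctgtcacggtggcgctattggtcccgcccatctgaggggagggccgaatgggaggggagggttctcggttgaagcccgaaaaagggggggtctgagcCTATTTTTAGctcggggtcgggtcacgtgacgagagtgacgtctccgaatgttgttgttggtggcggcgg
Hdac9 upstream start: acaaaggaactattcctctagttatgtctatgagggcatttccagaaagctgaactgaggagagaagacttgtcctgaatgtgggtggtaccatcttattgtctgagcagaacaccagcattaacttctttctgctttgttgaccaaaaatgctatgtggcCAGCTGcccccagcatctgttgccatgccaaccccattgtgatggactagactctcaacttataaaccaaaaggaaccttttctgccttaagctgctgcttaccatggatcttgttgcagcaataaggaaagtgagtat
Hdac9 internal start: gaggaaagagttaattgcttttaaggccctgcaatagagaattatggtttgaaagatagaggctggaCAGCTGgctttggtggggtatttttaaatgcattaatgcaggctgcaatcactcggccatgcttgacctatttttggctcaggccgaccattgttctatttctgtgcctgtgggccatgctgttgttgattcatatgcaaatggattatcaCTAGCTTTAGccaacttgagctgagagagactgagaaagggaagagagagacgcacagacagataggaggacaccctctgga
The internal Hdac9 window holds both motifs, and its CTANNNNTAG match, CTAGCTTTAG, has G and C where the Hdac5 one has only A and T between the fixed letters. These matches are letters in a window and show no binding.

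Some microRNAs add a further layer, since miR-206 is known to repress Hdac4 in denervated muscle. The deposited table has gene rows for Mir206, Mir133b, which lies next to Mir206, and Mir1a-1; these rows count reads over the hairpin genes, which may come from longer host transcripts, and the mature microRNAs were not measured. Mir206 had 0 reads in each WT library and 12, 4 and 8 reads in KO replicates 1 to 3. Against the limit that 3 counts over the WT group would give, this is at least 5.37-fold higher in KO, and the gene had too few reads to pass the filter of the main fit. Mir133b had 1, 1 and 2 reads in WT and 53, 19 and 31 in KO and rose by log2 3.97 (SE 0.60, edgeR adjusted p = 0.00123). With so few WT reads it passed the filter through its KO libraries, and the size of its rise is uncertain. Every KO library lay above every WT library for both genes. Mir1a-1, a source of miR-1, had 53 to 201 reads in WT and 129 to 323 in KO, with a log2 fold change of 0.26 (SE 0.27) that did not pass.

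The mature sequences (RefSeq, GRCm38.p6, plus strand of chromosome 1, 20679055 to 20679076 for miR-206-3p and 20682834 to 20682855 for miR-133b-3p) are shown with the seed, bases 2 to 8, in capitals, so that the matching letters in the Hdac4 transcript can be read against them.
miR-206-3p: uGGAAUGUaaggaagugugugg
miR-133b-3p: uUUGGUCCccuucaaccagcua
The longest coding transcript of Hdac4 in GENCODE (8100 bases) has 1 match to the miR-206-3p seed in its 3′ untranslated region. It lies 3281 bases into that region, at chr1:91930055-91930084 (GRCm38, minus strand), with the match in capitals.
Hdac4 site: tgtgtttctttcctcagaACATTCCttctt
None of the other 5 genes has such a match in the 3′ untranslated region of its longest coding transcript, and 9.95% of 20755 transcripts do. Only the seeds of miR-206-3p and miR-133b-3p were searched. Other microRNAs can share a seed, so the match was not shown to be particular to miR-206. In the same region, a match to the miR-133b-3p seed occurs 1 time each in Hdac7 and Hdac9 and not in Hdac4, against 7.73% of transcripts. The Hdac4 level given above did not differ between groups beyond its spread.

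Some of the other classical HDAC genes were lower in KO. Of 7 genes of classes I, IIb and IV, 3 fell and 0 rose, with a median log2 fold change of -0.57, beside 12.4% fallen and a median of 0.01 over all genes tested. Hdac3, the catalytic partner of class IIa HDACs, fell from 66.8 ± 4.77 to 42.6 ± 2.11 CPM (log2 -0.65, SE 0.13, edgeR adjusted p = 0.00582). Hdac11, the only class IV HDAC, fell from 7.36 ± 1.40 to 3.41 ± 0.391 CPM (-1.11, SE 0.19, edgeR adjusted p = 0.00215), and Hdac10, a polyamine deacetylase, from 7.76 ± 0.971 to 4.79 ± 1.05 CPM (-0.69, SE 0.20, edgeR adjusted p = 0.0240). Hdac3 and Hdac11 were past the threshold in all 14 alternatives, while Hdac10 was not with library size alone (adjusted p = 0.0963) or when WT replicate 1, WT replicate 3 or else KO replicate 1 was left out. Hdac8 and Hdac6 had values of -0.57 and -0.41 and did not pass, and Hdac1 and Hdac2 stood at -0.05 and -0.04. That the class IIa genes changed less than these genes was not tested. This list and the other gene lists were chosen with earlier results of these data known. The adjusted p-values of their genes, Mir133b among them, are therefore descriptive and not independent evidence.

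The genes that act around class IIa HDACs are given beside the share of all genes past the threshold, 13.5% risen and 12.4% fallen (25.9% together). Of the Mef2 factors, 0 of the 3 found passed in edgeR (0 by DESeq2 and limma-voom, and 0 at an unadjusted p below 0.05), with log2 fold changes of -0.16 (Mef2a) to 0.11 (Mef2c), and Mef2c, the most abundant by reads, averaged 512 ± 20.7 CPM in WT against 552 ± 26.2 CPM in KO. Of the 8 corepressor genes reported here, 1 fell. Gps2, a subunit of the complex that joins Ncor to Hdac3, fell (-0.95, SE 0.20, edgeR adjusted p = 0.00657). Gps2 was past the threshold in all 14 alternatives. Of 10 sine oculis homeobox, Eya and Ski genes, partners and relatives of Dach, 2 rose and 2 fell. They were Ski at 0.52 (SE 0.13), Eya2 at 0.67 (SE 0.20), Eya4 at -0.56 (SE 0.16) and Eya1 at -0.42 (SE 0.14). These calls depended on single libraries: Ski was lost without WT replicate 1 or KO replicate 1, Eya2 without any single library other than KO replicate 3, Eya4 with library size alone and when WT replicate 1, WT replicate 2, KO replicate 1 or KO replicate 3 was left out, and Eya1 in 12 of 14 alternatives, with adjusted p of up to 0.0905, 0.0891, 0.171 and 0.367 over all alternatives.

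Among kinases that phosphorylate class IIa HDACs, 4 of 17 rose and 2 fell, beside 13.5% risen and 12.4% fallen over all genes, with a median log2 fold change of 0.07. Sik1, a salt-inducible kinase that keeps class IIa HDACs out of the nucleus, rose from 11.1 ± 1.02 to 22.6 ± 0.218 CPM (1.03, SE 0.13, edgeR adjusted p = 0.000486). Prkaa1, a catalytic subunit of AMP-activated kinase, rose from 15.4 ± 1.61 to 25.7 ± 3.73 CPM, while Camk1, a calcium-dependent kinase, fell from 23.7 ± 3.92 to 14.7 ± 0.329 CPM. These 3 were past the threshold in all 14 alternatives. Camk1d was at 0.77 (SE 0.20), Camk2b, a fibre isoform of calcium-dependent kinase II, at 0.67 (SE 0.18), and Mark3 at -0.41 (SE 0.13). Camk1d was lost when WT replicate 2, WT replicate 3 or else KO replicate 1 was left out, Camk2b when WT replicate 1, WT replicate 2 or else KO replicate 1 was left out, and Mark3 in 9 of 14 alternatives (adjusted p of up to 0.069, 0.102 and 0.317). Of 7 genes for 14-3-3 proteins, beside the same shares, 1 rose, Ywhaq, at 0.59 (SE 0.16), which was lost without any single WT library (adjusted p of up to 0.0764), and 0 fell in edgeR, DESeq2 or limma-voom, with 1, Ywhag, lower at an unadjusted p of 0.0306.

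The genes downstream of the pathway showed large differences. Of 14 genes for myogenin and the targets that denervation induces, 9 rose and 2 fell, beside 13.5% risen and 12.4% fallen over all genes, with a median log2 fold change of 2.05. Myog, which Dach2 represses in innervated muscle, rose from 2.68 ± 0.524 to 16.9 ± 1.80 CPM. Ncam1 rose from 6.60 ± 1.01 to 69.9 ± 9.07 CPM, Chrne, the adult receptor subunit gene, from 5.39 ± 0.344 to 40.1 ± 6.20 CPM, and Chrna1 from 10.8 ± 1.11 to 61.6 ± 8.33 CPM (SD, n = 3 each). Chrng, the fetal receptor subunit gene, rose from 0.217 ± 0.176 to 2.50 ± 0.303 CPM. Gdf5, a bone morphogenetic protein gene induced in denervated muscle, rose by log2 2.35 (SE 0.45). Its reads numbered 7, 4 and 3 in WT replicates 1 to 3 and 41, 26 and 43 in KO replicates 1 to 3. Gdf5 thus passed the filter through its KO libraries, and the size of its rise is uncertain. Not every gene of the list moved this way. Musk, the agrin receptor kinase gene, averaged 49.0 ± 21.7 CPM in WT, 29.6 ± 5.48 CPM in KO and did not pass, and Rapsn and Myod1 did not pass at -0.08 and 0.28. The ubiquitin ligase genes Trim63 and Fbxo32, known to be induced by denervation through myogenin, fell by 0.78 and 0.89 on the log2 scale (SE 0.15 and 0.20). All 11 calls in the list held in every alternative in which the gene was tested. Most genes of this list were known to differ in these libraries when the list was drawn up, so its count is not independent evidence.

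**Figure D4:**
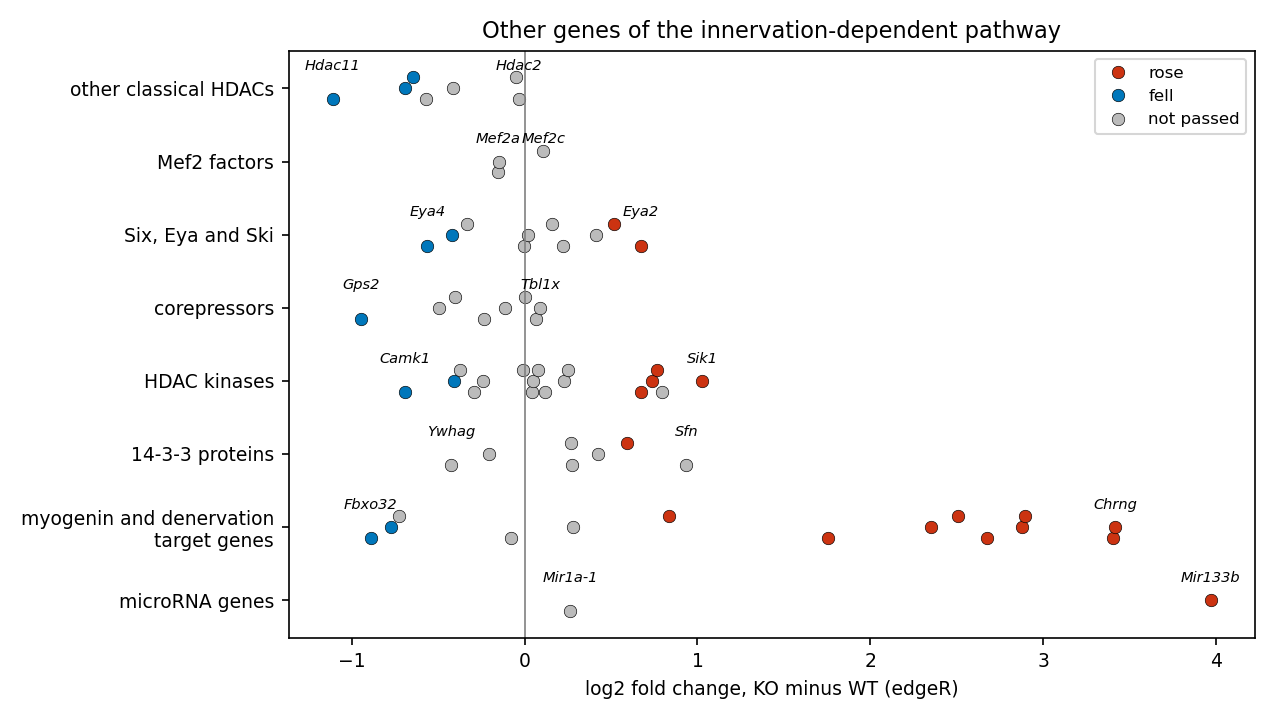
Log2 fold change of KO over WT for the tested genes reported here from the 8 lists around the Dach and class IIa HDAC genes, coloured by whether it rose, fell or did not pass, with the lowest and highest gene of each list named. The myogenin and denervation targets reach 3.42 (Chrng), while the Mef2 factors stay between -0.16 and 0.11.

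The genes whose profile over the 6 libraries was most like that of Dach2 were found by the root mean square difference of log2 CPM, each gene centred on its own mean, among 10302 genes. The nearest was Wnk3-ps, named as a pseudogene of a kinase gene in the table, at a difference of 0.29 on the log2 scale, with 6.05, 7.07 and 6.58 CPM in WT and 0.668, 1.02 and 0.563 CPM in KO. Samd10 (0.42), the synaptotagmin gene Syt3 (0.43), Car11, which encodes a carbonic anhydrase-related protein (0.45), and Mstn, which encodes the muscle growth inhibitor myostatin (0.47), followed. Mstn had 69.6, 79.7 and 93.4 CPM in WT against 11.9, 22.0 and 15.1 CPM in KO, so KO replicate 2 was the highest KO library for it, as for Dach2. Genes alike in this measure share a fall of like size by construction, and 4 of the 5 were also found with the mean absolute difference.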

How the data were processed

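RNA was measured in 3 WT and 3 KO samples, grouped by the labels' titles. Per the labels' protocols, libraries were stranded total RNA depleted of ribosomal RNA. Tools listed in the submitters' processing notes, without roles, are TopHat2 2.0.14, HTSeq 0.6.1, bcl2fastq 2.17.1.14 and Bowtie, with the build mm9; the annotation and the strand setting of counting are not stated. Per the file headers, the authors deposited raw read counts per gene, a normalized signal per kb of gene, and their log2 fold change of KO over WT with p-value and adjusted p-value, whose test is not given. The labels call samples replicates without naming animals, so p-values cover only the spread among these samples, which may be technical.

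Counts were fitted with edgeR 4.0.16 in R 4.3.3 (TMM, filterByExpr at 10 counts and a total of 15, the quasi-likelihood test, no covariate, 16628 genes tested), with Benjamini-Hochberg adjustment over all genes; rose and fell mean an adjusted p below 0.05. The SE is the log2 fold change divided by the root of F. The floor for a gene without reads is 3 counts over the group, which covers counting error only. Gene lengths behind the deposited signal were recovered as counts over that signal, corrected for DESeq2-type size factors; 54.9% lay within 1% of the median transcript length in GENCODE vM21 (GRCm38), where 26186 of 28510 identifiers were found. The longest coding transcript was chosen as length after the data were seen. The files use mm9, so coordinates are those of the reference tables. The fit was tested on simulated counts. The genes named are the 6 genes, both targeted genes, up to 4 called genes with the lowest p per list with others of a list by count, range or value, the 5 genes most like Dach2, and overlapping genes; genes named beyond this were chosen after their values were seen. Members and lists were chosen with earlier results of these data known. A gene of the corepressor list is not reported here and is left out of that list's counts. Alternatives were RLE size factors, library size alone, no and a stricter filter (CPM of at least 1 in at least 3 libraries), DESeq2 1.42.0, limma-voom (limma 3.58.1), robust dispersion, the replicate block, and each library left out. Figures were drawn with matplotlib 3.10.9.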

Additional observations from a re-analysis of the deposited data

How the results depend on the processing

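Dach2 fell in every fit run, and the calls of Myog, Chrna1, Chrnd, Chrne, Ncam1, Hdac3, Hdac11, Gps2, Sik1, Prkaa1 and Camk1 held in all 14 alternatives. Library size alone shifted the median over all genes from log2 0.01 to 0.22 and gave 3418 risen and 1030 fallen genes, against 2249 and 2062. It put Hdac9 at 0.67, Hdac7 at 0.36 and the second Hdac4 row at 0.13, counted 1 of the 7 Dach and HDAC rows as risen, and gave 5 risen 14-3-3 genes, 0 fallen Dach partner genes and 1 fallen kinase gene. The stricter filter gave 1 risen row, 3 risen 14-3-3 genes, 1 fallen kinase gene, 1 fallen Dach partner gene and 0 risen microRNA genes, since Mir133b left the test. Without a filter these were 2 risen 14-3-3 genes, 1 fallen kinase gene, 1 fallen Dach partner gene, 2 fallen corepressor genes and 2 risen microRNA genes, since Mir206 entered the test. DESeq2 gave 3 risen 14-3-3 genes and 3 fallen corepressor genes, limma-voom 2 fallen corepressor genes and 1 fallen Dach partner gene, robust dispersion 2 risen 14-3-3 and 2 fallen corepressor genes, and RLE size factors 1 fallen Dach partner gene. For these remaining changes the cause was not tested.

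With each library left out in turn, risen genes numbered 1391 to 2321 and fallen genes 1168 to 2189, the lowest without KO replicate 1. The 7 rows had 0 to 1 risen (Hdac5, without KO replicate 2) and 1 to 1 fallen. Their log2 fold changes ran from -3.49 to -2.95 for Dach2, -0.42 to -0.12 for Dach1, -0.24 to 0.14 and -0.15 to 0.04 for the Hdac4 rows, 0.12 to 0.53 for Hdac5, 0.06 to 0.24 for Hdac7 and 0.35 to 0.51 for Hdac9. List counts ran over 0 to 3 risen 14-3-3 genes, 0 to 2 risen and 0 to 2 fallen Dach partner genes, 1 to 2 fallen corepressor genes, 2 to 4 risen and 1 to 2 fallen kinase genes, 2 to 4 fallen other HDAC genes, and 9 to 10 risen and 2 to 3 fallen target genes.

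Deviations from the group means had correlations of 0.0154 to 0.0632 between WT and KO samples with the same replicate number. For different numbers they were -0.0782 to 0.0246. With 3 libraries per group, such small values cannot decide whether the numbers pair the samples. The replicate block gave 2457 risen and 2236 fallen genes, -3.28 for Dach2, 3 risen 14-3-3 genes, 1 fallen Dach partner gene, 2 fallen corepressor genes and 1 fallen kinase gene. The 33 to 60 KO reads limit the precision of Dach2. The low reads of Mir206 and the low WT reads of Mir133b and Gdf5 limit that of their folds.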
